A study of Mus musculus with 6 samples.

Results

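The genes described here encode the proteins that sense damaged DNA, signal it and mend it. They were a list of 43 genes, found on the arrays by their gene symbol and divided among homologous recombination, the Fanconi anaemia pathway, mismatch repair, base excision and single-strand break repair, direct reversal, end joining and checkpoint signalling. Of the 43 genes, 41 had a probe set named in the platform annotation and 38 passed the filter on dim signal, among 7644 genes tested in all of 12393 with a probe set. Fancd2 and Xrcc2 had no probe set named here and were not analysed here. Bard1, Nthl1 and Mgmt were too dim to be tested.

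Cells react to broken or altered DNA along linked routes. Checkpoint kinases such as ATM and ATR read the damage and slow the cell cycle, and dedicated enzymes repair it: homologous recombination copies the sister chromatid and works mainly in S and G2 phase, end joining ligates broken ends at any phase, and base excision and mismatch repair replace altered or mispaired bases. The transcription factor p53 is a target of the checkpoint kinases and induces the cell cycle inhibitor p21, encoded by Cdkn1a, and many repair and replication genes are expressed mostly in dividing cells.

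The arrays came from KPR4, KPR5 and KPR8, which are 3 cell lines derived from mouse lung adenocarcinoma on a mixed C57/B6-129SvJae background. A culture of each line received 4-OH tamoxifen at 250 nM for 24 h, by which, per the series' design text, expression of p53 is restored, and another culture of each received the ethanol vehicle. All cultures grew in medium with 10% serum. There was 1 array for each line and treatment, so 3 arrays per treatment, and the lines are the replicates. The labels do not give the alleles of the lines or whether each is 1 clone. The p53 gene itself was not analysed here.

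The deposited values are log2 signal per probe set, and every level and change below is on this log2 scale unless a fold is named. Control probe sets for bacterial transcripts, which give the level of background, lay between 1.13 and 2.84. A gene was tested where its probe set reached log2 4 on at least 3 of the 6 arrays, and the brightest probe set stood for the gene. Epithelial markers were present, with Krt8 at 12.09 to 12.40 and Krt18 at 12.93 to 13.50 over all 6 arrays. Of 6 epithelial markers tested, 2 were called higher with 4-OH tamoxifen, Cldn4 (0.89) and Cdh1 (0.30), and 1 lower, Epcam (-0.37). The lung markers Nkx2-1 (2.40 to 2.83) and Sftpc (2.36 to 3.13) were at or near background. Of 8 lung epithelial markers 2 passed the filter, Aqp5 at 7.23 to 10.11 and Abca3 at 6.89 to 8.32 over the 6 arrays. Of the markers of other cell types, 3 of 7 fibroblast, 2 of 6 leukocyte and 0 of 4 endothelial genes passed the filter, and 1 of these changed, the leukocyte and lysosome marker Cd68 (higher by 1.02), with the leukocyte marker Ptprc at 1.62 to 2.05. Their part in the results was not tested.

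With 4-OH tamoxifen 19 of the 38 tested repair and checkpoint genes were lower than with ethanol and 1 was higher. The test was limma's moderated test with a term for the line and a Benjamini-Hochberg threshold of 0.05 over all 7644 genes, of which 8.94% were called lower and 10.5% higher. The median change of the 38 genes was -0.46, against 0.0019 over all genes tested. The changes ran from -1.48 for Exo1 to 0.39 for Trp53bp1, and 34 of the 38 were below 0. The count of lower genes rested on comparing treatments within a line: without the line term 0 of the 38 passed in limma, with 13 lower and 1 higher at an unadjusted p under 0.05, against 382 lower and 396 higher of all 7644 genes. For 14 of the 38 the 3 tamoxifen arrays did not overlap with the 3 ethanol arrays, as did 15.7% of all genes tested. These are bulk measurements, so fewer cells expressing a gene and less RNA per cell cannot be told apart.

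**Figure D1:**
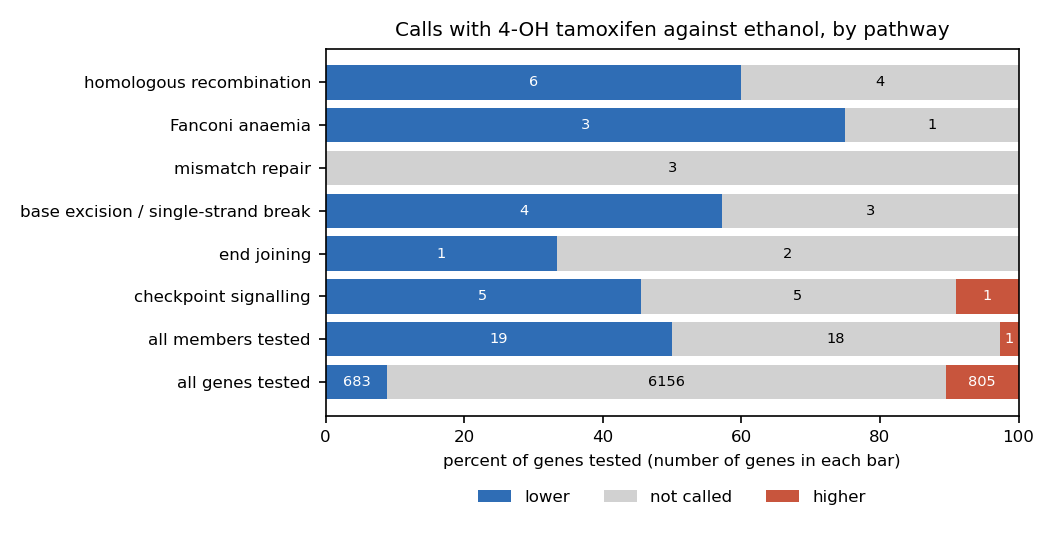
Share of tested genes called lower (blue), not called (grey) or called higher (red) with 4-OH tamoxifen against ethanol in each pathway, in percent, with the number of genes in each bar segment (limma, adjusted p under 0.05). Of 38 members tested 19 were lower and 1 higher, against 683 lower and 805 higher of 7644 genes in all.

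The plot of calls by pathway divides the lower genes. They were 6 of 10 tested genes in homologous recombination, 3 of 4 in the Fanconi anaemia pathway, 4 of 7 in base excision and single-strand break repair, 5 of 11 in checkpoint signalling, 1 of 3 in end joining and 0 of 3 in mismatch repair. The median change was -0.90 in homologous recombination, -0.57 in the Fanconi anaemia pathway, -0.46 in checkpoint signalling, -0.38 in mismatch repair, -0.37 in base excision repair and -0.18 in end joining. The differences between pathways were not tested.

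The genes that fell furthest are shown first by their promoters, because genes of the dividing cell often carry E2F sites there. RefSeq promoter windows (build GRCm38.p6, 250 bases before to 50 after the transcription start) were at hand for 34 of the 43 genes. The windows of the 4 genes with the largest falls among those 34 are Ung (chr5:114130185-114130484, plus strand), Chek1 (chr9:36726609-36726908, minus strand), Rad54l (chr4:116123641-116123940, minus strand) and Rad51ap1 (chr6:126939538-126939837, minus strand), printed 5′ to 3′ on the gene's strand. The start site is base 251 of each window, and capitals mark GGCGGGAA, an E2F-type core that was added to the search after the windows had been seen. Rad54l has another window 1 base away, not shown.
Ung: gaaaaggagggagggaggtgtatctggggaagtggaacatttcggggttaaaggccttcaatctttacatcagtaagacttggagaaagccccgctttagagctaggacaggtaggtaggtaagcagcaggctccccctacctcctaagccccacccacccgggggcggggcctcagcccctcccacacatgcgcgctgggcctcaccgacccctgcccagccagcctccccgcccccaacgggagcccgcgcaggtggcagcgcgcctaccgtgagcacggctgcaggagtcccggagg
Chek1: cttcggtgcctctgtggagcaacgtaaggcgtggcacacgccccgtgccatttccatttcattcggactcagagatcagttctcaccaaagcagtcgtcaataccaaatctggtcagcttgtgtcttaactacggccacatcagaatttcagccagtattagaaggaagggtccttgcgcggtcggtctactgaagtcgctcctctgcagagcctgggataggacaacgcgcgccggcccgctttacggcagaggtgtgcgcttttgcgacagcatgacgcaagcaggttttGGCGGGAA
Rad54l: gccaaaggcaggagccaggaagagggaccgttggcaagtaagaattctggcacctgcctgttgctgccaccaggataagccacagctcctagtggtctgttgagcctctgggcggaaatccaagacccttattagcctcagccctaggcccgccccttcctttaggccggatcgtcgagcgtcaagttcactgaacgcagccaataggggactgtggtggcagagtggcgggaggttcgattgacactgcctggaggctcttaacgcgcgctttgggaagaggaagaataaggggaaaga
Rad51ap1: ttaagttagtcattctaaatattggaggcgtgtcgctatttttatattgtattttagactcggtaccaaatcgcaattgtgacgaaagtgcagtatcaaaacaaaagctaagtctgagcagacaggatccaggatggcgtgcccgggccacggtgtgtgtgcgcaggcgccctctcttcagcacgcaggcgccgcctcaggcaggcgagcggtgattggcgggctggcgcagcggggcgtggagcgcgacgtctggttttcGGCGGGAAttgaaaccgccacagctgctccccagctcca

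None of these 4 windows held an E2F-type motif as first listed (TTTCGCGC, TTTGGCGC, TTTCCCGC or TTTGCCGC on either strand), a CHR-type motif (TTTGAA or TTCGAA on either strand) or a p53 consensus half-site. The core GGCGGGAA lay at positions 43 to 50 after the start in Chek1 and 12 to 19 after it in Rad51ap1. An E2F-type motif from the list was found in 9 of the 37 windows of the 34 genes, which is 24.3%, against 4.04% of 8102 windows of tested genes and 2.26% of all 32851 windows. With the added core, which can share letters with TTTCCCGC on the other strand, the shares were 29.7%, 6.94% and 3.89%. CHR-type motifs were in 13.5% of the windows of the 34 genes, 13.9% of those of tested genes and 19.2% of all, and p53 half-sites in 8.11%, 6.99% and 8.36%. These are counts of letters in a window, not of bound sites.

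The E2F-type motifs were found in genes that were called lower and in genes that were not. Stretches of 60 bases around the motif, in capitals, are shown for 3 genes called lower (Brca2, Topbp1 and Xrcc6) and for 3 genes not called (Msh6, Chek2 and Fancg). They lie at chr5:150522427-150522486 on the plus strand for Brca2, chr9:103305172-103305231 on the plus strand for Topbp1, chr15:82016297-82016356 on the plus strand for Xrcc6, chr17:87975039-87975098 on the plus strand for Msh6, chr5:110839805-110839864 on the plus strand for Chek2 and chr4:43010320-43010379 on the minus strand for Fancg, in GRCm38.p6.
Brca2: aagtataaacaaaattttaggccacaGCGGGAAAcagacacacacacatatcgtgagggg
Topbp1: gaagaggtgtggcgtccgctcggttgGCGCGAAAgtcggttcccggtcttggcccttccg
Xrcc6: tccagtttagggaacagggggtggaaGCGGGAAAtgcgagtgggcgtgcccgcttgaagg
Msh6: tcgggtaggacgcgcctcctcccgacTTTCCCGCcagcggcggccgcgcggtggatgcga
Chek2: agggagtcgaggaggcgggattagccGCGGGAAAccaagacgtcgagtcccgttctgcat
Fancg: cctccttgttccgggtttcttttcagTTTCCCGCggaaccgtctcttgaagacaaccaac

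Of the 7 tested genes with an E2F-type motif in the window, 3 were called lower and the median change was -0.45. Of the 24 tested genes with a window and no such motif, 13 were lower and the median was -0.49. With the added core counted too, 5 of 9 genes with a motif were lower, with a median of -0.59, against 11 of 22 without, with a median of -0.46, so the order of the medians depends on the motifs searched. No test was made of either difference. Exo1, Usp1 and H2ax, which also fell, had no window to read.

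Homologous recombination genes had the lowest median, and among them Exo1 fell furthest, the 5′ exonuclease that resects broken ends and also excises mismatched strands. The Exo1 level was 4.25, 5.67 and 4.85 in tamoxifen-treated KPR4, KPR5 and KPR8, against 5.64, 6.80 and 6.78 in the ethanol arrays of the same lines. Each treated array lay below its own ethanol array, while treated KPR5 lay level with ethanol KPR4, so the groups overlapped by the difference between lines. The change was -1.48 ± 0.18 (SE), or 2.79-fold lower (limma, adjusted p = 5.8e-05), and a dimmer probe set of the gene gave -0.88.

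Rad54l encodes the translocase RAD54, which acts in strand invasion and remodels chromatin at the template. Its level was 3.03, 3.97 and 3.77 with 4-OH tamoxifen in KPR4, KPR5 and KPR8, against 4.10, 4.85 and 5.21 with ethanol. The treated arrays were all below the ethanol arrays, and Rad54l was the 1 gene of the 38 that passed the filter through its ethanol arrays alone. The fall was -1.13 ± 0.16 (limma, adjusted p = 0.000146), 0.000428 in the fit without a filter. The signal was close to background, and dimmer probe sets gave -0.58 and -0.30.

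Rad51ap1, whose product stimulates strand invasion, read 4.15, 5.81 and 5.71 in the treated arrays and 6.12, 6.51 and 6.36 in the ethanol arrays of KPR4, KPR5 and KPR8. Treated KPR4 lay far below the other arrays, and the groups did not overlap. The change of -1.11 ± 0.23 (limma, adjusted p = 0.00321) was made up of -1.98, -0.70 and -0.64 in those lines. The probe set is of a type that can share probes with other transcripts, and its other probe sets past the filter gave -1.32 and -0.93.

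Blm, the helicase that dissolves recombination intermediates and is mutated in Bloom syndrome, read 3.54, 4.62 and 4.40 with 4-OH tamoxifen and 4.62, 5.62 and 5.35 with ethanol. The treated and ethanol arrays met at 4.62 and did not cross. The change of -1.01 ± 0.15 (limma, adjusted p = 0.000315) was nearly the same in KPR4, KPR5 and KPR8, at -1.08, -1.0 and -0.95.

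Both breast cancer susceptibility genes fell. Brca2, which acts after resection to prepare strand invasion, averaged 5.68 ± 0.42 with 4-OH tamoxifen and 6.68 ± 0.63 with ethanol (SD, n = 3 each), a change of -1.0 ± 0.17 (limma, adjusted p = 0.000879). Brca1, a ubiquitin ligase that promotes resection, averaged 7.07 ± 0.38 with 4-OH tamoxifen and 7.88 ± 0.18 with ethanol (SD, n = 3 each), a change of -0.81 ± 0.17 (limma, adjusted p = 0.0035). The Brca1 arrays did not overlap between treatments and the Brca2 arrays did. Bard1, the partner of Brca1, lay between 3.27 and 3.72 with 4-OH tamoxifen and between 3.44 and 4.25 with ethanol, and its change without a filter was -0.27 (limma, adjusted p = 0.254).

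The other 4 tested genes of this pathway were not called. Nbn and Rad50, subunits of the complex that first binds a break, had differences of -0.44 ± 0.16 (95% interval -0.78 to -0.09) and -0.34 ± 0.18 (95% interval -0.72 to 0.046). Nbn has 1 probe set, and its change was the same but past the threshold in the fit that averaged the probe sets of other genes (limma, adjusted p = 0.0445). Rad52, which anneals single strands, and the helicase gene Wrn had changes of -0.05 ± 0.18 and -0.016 ± 0.17, with 95% intervals of -0.44 to 0.34 and -0.39 to 0.36. Their lines differed in sign, Rad52 with -0.51, 0.26 and 0.10 and Wrn with -0.31, 0.022 and 0.24 in KPR4, KPR5 and KPR8. These signs depended on the probe set. Another one past the filter gave -0.15, -0.14 and -0.35 for Rad52 and 0.0089, 0.25 and -0.46 for Wrn in the same lines.

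**Figure D2:**
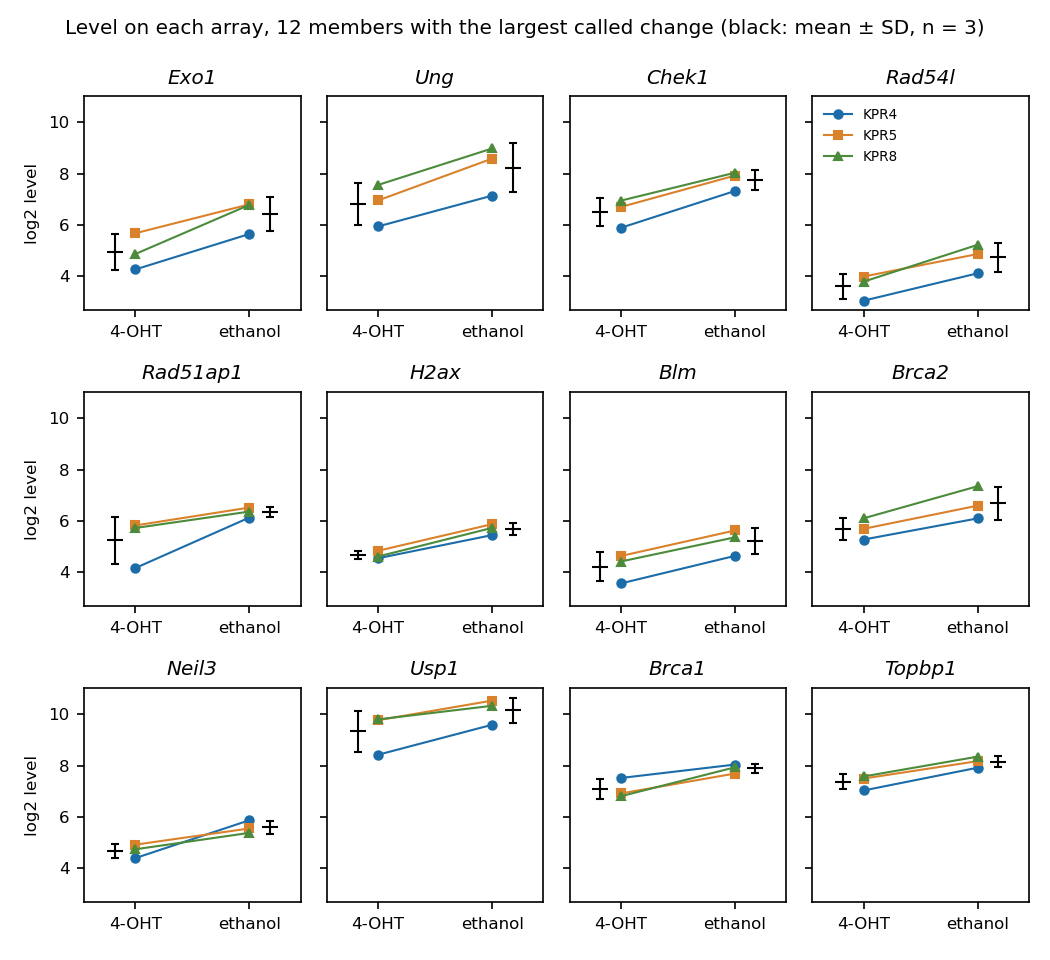
Log2 level on each array of the 12 members with the largest called change, 4-OH tamoxifen (4-OHT) left and ethanol right, with a line joining the arrays of a cell line and black bars for the mean ± SD of 3 arrays. Every line of every gene shown slopes up to ethanol, and KPR4 is the lowest line in most panels.

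The levels on single arrays, plotted for the 12 largest changes, show the same direction in each line for each of these genes. They also show differences between lines under both treatments. For Ung, Usp1, Brca2 and Blm the range of the 3 line means was larger than the change with treatment.

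In the Fanconi anaemia pathway, which unhooks crosslinks between DNA strands, 3 of 4 tested genes fell. Usp1, the enzyme that removes ubiquitin from FANCD2 and PCNA, read 8.42, 9.77 and 9.81 in treated KPR4, KPR5 and KPR8, against 9.59, 10.54 and 10.34 in the ethanol arrays. Treated KPR4 was the lowest array by more than 1 unit, and the groups overlapped because ethanol KPR4 lay below the other treated arrays. The change was -0.82 ± 0.14 (limma, adjusted p = 0.000978), or 1.77-fold lower, and 2 other probe sets gave -0.97 and -0.70.

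Fanci, the partner of FANCD2, read 6.10, 6.51 and 6.46 in the treated arrays and 6.69, 6.99 and 7.14 in the ethanol arrays, a change of -0.58 ± 0.16 (limma, adjusted p = 0.0219). Fanca, of the core complex that ubiquitinates this pair, read 5.02, 5.22 and 4.70 in the treated arrays and 5.55, 5.56 and 5.51 in the ethanol arrays, a change of -0.56 ± 0.17 (limma, adjusted p = 0.0282). Neither gene's treated arrays overlapped with its ethanol arrays, but each call ended in fits with a line left out. Fanci had adjusted p = 0.1 without KPR4, 0.0531 without KPR5 and 0.0857 without KPR8, and Fanca had 0.0867 without KPR4 and 0.15 without KPR8. Fancg, of the same core complex, read 6.77, 7.24 and 7.37 with 4-OH tamoxifen and 7.54, 7.62 and 7.57 with ethanol. Its groups did not overlap either, and its change of -0.45 ± 0.17 (95% interval -0.81 to -0.089) missed the threshold (limma, adjusted p = 0.0759).

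Mismatch repair had 0 of 3 genes past the limma threshold, where 8.94% of all genes tested were lower and 10.5% higher. At an unadjusted p under 0.05 Pms2 and Msh3 were lower, a looser cut for which no share of all genes is given here. Pms2, which nicks the strand to be removed, had a difference of -0.42 ± 0.17 (95% interval -0.78 to -0.072). Msh3, which binds insertion and deletion loops, had a difference of -0.38 ± 0.16 (95% interval -0.71 to -0.052). Msh6, which binds single mismatches, read 10.03, 9.80 and 9.52 in treated KPR4, KPR5 and KPR8 and 9.51, 9.72 and 9.65 with ethanol. Msh6 was higher in KPR4 and KPR5 and lower in KPR8, and its change was 0.16 ± 0.14 (95% interval -0.15 to 0.46).

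Base excision repair begins with glycosylases that cut out an altered base, and 2 of these fell. Ung, which removes uracil, read 5.93, 6.95 and 7.56 with 4-OH tamoxifen in KPR4, KPR5 and KPR8, against 7.14, 8.59 and 8.98 with ethanol. The fall was of like size in each line (-1.21, -1.64 and -1.43), and the groups overlapped because KPR4 with ethanol was below KPR8 with 4-OH tamoxifen. The change was -1.42 ± 0.16, or 2.68-fold lower (limma, adjusted p = 2.9e-05), next in size to that of Exo1 among the 38 genes.

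Neil3, a glycosylase for oxidised bases that is found mainly in dividing cells, read 4.38, 4.90 and 4.72 in treated arrays and 5.86, 5.54 and 5.37 in ethanol arrays. All treated arrays were below all ethanol arrays, with the largest difference in KPR4, and the overall change was -0.92 ± 0.19 (limma, adjusted p = 0.00299). Ogg1, which removes oxidised guanine, had a change of -0.18 ± 0.15 (95% interval -0.49 to 0.13). Its signal was near the filter, at 3.96 to 4.48 over the 6 arrays. Nthl1, a glycosylase for oxidised pyrimidines, stayed between 3.34 and 3.96 on the 6 arrays, below the filter, and its change without a filter was 0.19 (limma, adjusted p = 0.44).

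Parp1 and Parp2, which bind nicked DNA and build poly(ADP-ribose) there, were both lower. Parp1 read 10.14, 10.67 and 10.61 with 4-OH tamoxifen and 10.53, 10.89 and 11.10 with ethanol, a change of -0.37 ± 0.12 (limma, adjusted p = 0.0349), whereas 2 dimmer probe sets of the gene gave -0.93 and -0.97. Parp2 read 6.12, 6.35 and 5.59 with 4-OH tamoxifen and 6.61, 6.53 and 6.64 with ethanol, a change of -0.57 ± 0.19 (limma, adjusted p = 0.0451). The Parp1 groups overlapped and the Parp2 groups did not, and the difference for Parp2 was largest in KPR8. The Parp1 call needed every line, with adjusted p = 0.173 when KPR4 was left out, 0.0515 for KPR5 and 0.123 for KPR8. The Parp2 call needed KPR4 (adjusted p = 0.0779 when left out) and KPR8, in whose absence the change was -0.34 (adjusted p = 0.267).

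Apex1 and Xrcc1, which act after the glycosylases, were not called. Apex1, the endonuclease that cuts at the abasic site, read 11.16, 11.32 and 11.52 in treated arrays and 11.32, 11.29 and 11.67 in ethanol arrays. Its change was -0.092 ± 0.10 (95% interval -0.31 to 0.13). This probe set, and a dimmer one that gave -0.088, are of a type that can share probes with other transcripts. A probe set not of that type gave -0.54, with -0.59, -0.38 and -0.66 in KPR4, KPR5 and KPR8. Xrcc1, the scaffold for the ligase, had a difference of -0.15 ± 0.17 (95% interval -0.51 to 0.20). Mgmt, the direct reversal enzyme that takes methyl groups off guanine, was at or near background on all 6 arrays, between 2.62 and 2.86 with 4-OH tamoxifen and between 2.59 and 2.71 with ethanol.

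Of the end joining genes, Xrcc6 fell. It encodes a subunit of Ku, the ring that holds broken ends, and read 7.11, 8.01 and 7.66 in treated KPR4, KPR5 and KPR8, against 7.75, 8.44 and 8.35 with ethanol. Each line was lower with treatment, and the groups overlapped since treated KPR5 lay above ethanol KPR4. The change was -0.59 ± 0.16 (limma, adjusted p = 0.0157), and leaving out KPR4 (adjusted p = 0.0902) or KPR8 (0.0765) ended the call. Xrcc5, the other Ku subunit, had -0.18 ± 0.15 (95% interval -0.51 to 0.14). Xrcc4, the partner of the end joining ligase, had 0.13 ± 0.16 (95% interval -0.22 to 0.48). The Xrcc4 probe set used is of a type that can share probes with other transcripts, and another one gave 0.0062.

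**Figure D3:**
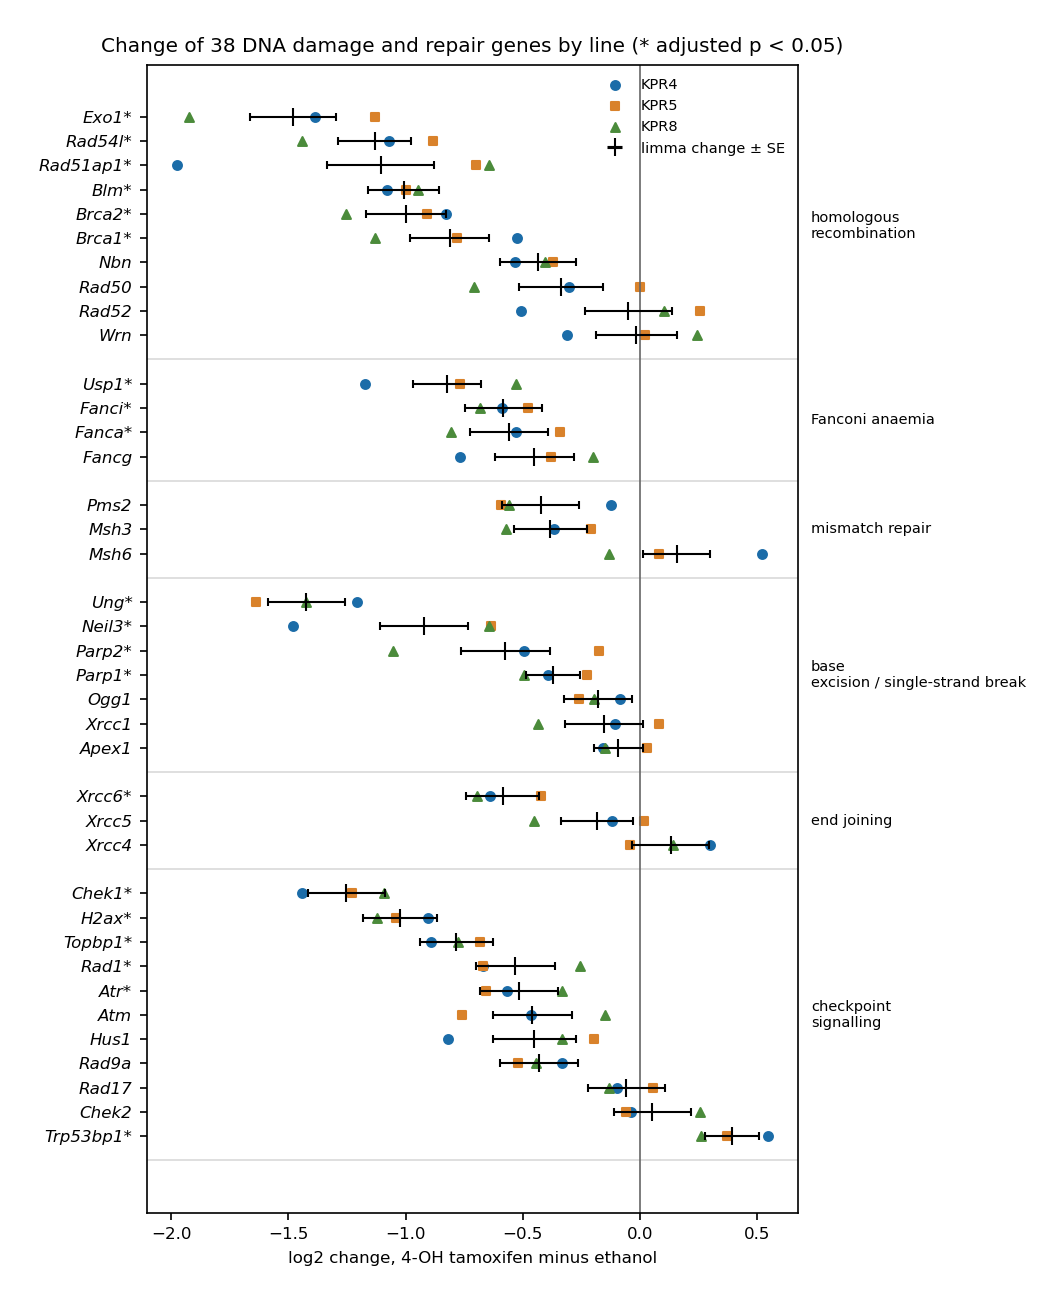
Log2 change, 4-OH tamoxifen minus ethanol, of the 38 tested members in KPR4 (circles), KPR5 (squares) and KPR8 (triangles), with the limma change ± SE in black and an asterisk at an adjusted p under 0.05, by pathway. By the limma change Exo1, Ung and Chek1 lie furthest left, by single lines Rad51ap1 in KPR4 does at -1.98, and Trp53bp1 is the 1 called gene on the right of 0.

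The plot of changes by line sets the called genes beside those that missed the threshold. In checkpoint signalling Chek1, H2ax and Topbp1 lie to the left, and Rad17 and Chek2 lie near 0.

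Chek1, the effector kinase of ATR that restrains entry into mitosis, fell most among checkpoint genes. It read 5.88, 6.69 and 6.94 with 4-OH tamoxifen in KPR4, KPR5 and KPR8, against 7.32, 7.92 and 8.03 with ethanol. The treated arrays were all below the ethanol arrays, and the lines changed by -1.44, -1.23 and -1.09. The change was -1.25 ± 0.16, or 2.38-fold lower (limma, adjusted p = 9.5e-05). The probe set used is of a type that can share probes with other transcripts. Other Chek1 probe sets past the filter, not of that type, gave -1.37 and -0.86, and a probe set at background gave 0.12.

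Topbp1, the activator of ATR, read 7.02, 7.49 and 7.57 in the treated arrays and 7.91, 8.17 and 8.35 in the ethanol arrays, with no overlap and a change of -0.78 ± 0.16 (limma, adjusted p = 0.00245). Atr, the kinase itself, had a smaller change of -0.52 ± 0.17 (limma, adjusted p = 0.0406). The Atr call also needed every line: its adjusted p was 0.184 when KPR4 was left out, 0.179 for KPR5 and 0.058 for KPR8.

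The clamp that marks damaged DNA for ATR is built of Rad9a, Rad1 and Hus1 and is loaded by Rad17. Rad1 read 6.12, 6.84 and 6.74 with 4-OH tamoxifen and 6.79, 7.51 and 6.99 with ethanol, with overlapping groups. Its change was -0.53 ± 0.17 (limma, adjusted p = 0.0398), which missed the threshold when KPR4 (adjusted p = 0.218) or KPR5 (0.174) was left out. Rad9a had -0.43 ± 0.16 (95% interval -0.78 to -0.08) and Hus1 had -0.45 ± 0.18 (95% interval -0.83 to -0.073), neither of them called. The loader Rad17 had -0.058 ± 0.16 (95% interval -0.41 to 0.29).

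H2ax, the histone variant phosphorylated around breaks, read 4.53, 4.82 and 4.60 in treated arrays and 5.44, 5.86 and 5.72 in ethanol arrays. The 2 groups were well apart, with a spread within each smaller than the change of -1.02 ± 0.16 (limma, adjusted p = 0.000392), which was -0.91, -1.04 and -1.12 in KPR4, KPR5 and KPR8. In the ATM branch, Atm, the kinase recruited to breaks, had a difference of -0.46 ± 0.17 (95% interval -0.82 to -0.10) and was not called. Chek2, its effector kinase, read 6.98, 6.67 and 7.45 with 4-OH tamoxifen and 7.02, 6.73 and 7.19 with ethanol, a change of 0.052 ± 0.17 (95% interval -0.30 to 0.40).

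Trp53bp1 was the 1 member that rose, and it is singled out for that after its values were seen. It encodes a chromatin reader at breaks that shields ends from resection and favours end joining. The level was 10.79, 10.77 and 10.91 with 4-OH tamoxifen in KPR4, KPR5 and KPR8, against 10.24, 10.40 and 10.65 with ethanol, without overlap. The change of 0.39 ± 0.12 (limma, adjusted p = 0.0284) was 1.31-fold. Leaving out KPR4 gave a change of 0.31 and an adjusted p of 0.267, and leaving out KPR5 gave 0.40 and 0.0827, so the call needed both. The call also ended without the variance trend (limma, adjusted p = 0.0806). A dimmer probe set, at 6.67 to 7.30 and past the filter on all 6 arrays, gave 0.11. By line it gave 0.015, -0.073 and 0.39 in KPR4, KPR5 and KPR8, so the rise in KPR4 and KPR5 rests on 1 probe set.

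Several genes had more than 1 probe set, and these differed in size more than in sign. Among the 38 tested genes 19 had several probe sets, and 15 of them had another probe set past the filter. Those 21 other probe sets all had the sign of the one used. Parp1 and Apex1 had dimmer probe sets with a larger fall, and Exo1, Rad54l and Trp53bp1 had dimmer probe sets with a smaller change.

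**Figure D4:**
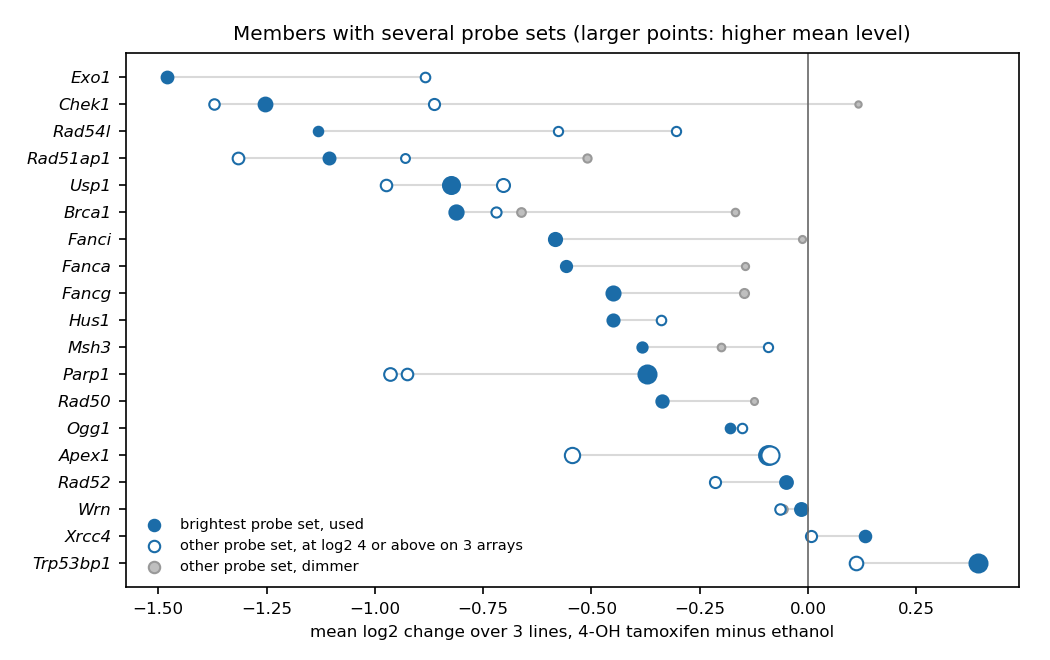
Mean log2 change over 3 lines, 4-OH tamoxifen minus ethanol, for each probe set of the 19 tested members with more than 1, filled for the brightest (used), open for others at log2 4 or above on 3 arrays and grey for dimmer ones. Open points lie on the same side of 0 as the filled ones, and the spread is widest for Chek1, where a background probe set is at 0.12.

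Within each line most of the repair and checkpoint genes were lower, though 1 array per treatment allows no test in a line. Past a difference of 0.5, KPR4 had 21 of the 38 lower and 2 higher, against 9.31% and 11.6% of all genes tested. KPR5 had 17 lower and 0 higher, against 10.7% and 14.9%, and KPR8 had 19 lower and 0 higher, against 12.9% and 10.5%. The higher genes of KPR4 were Trp53bp1 and Msh6. The median change was -0.53 in KPR4, -0.40 in KPR5 and -0.51 in KPR8, against 0.011, 0.034 and -0.043 over all genes tested in these lines. Of the 38 genes, 28 were lower in all 3 lines and 1 was higher in all 3, against 25.7% and 26.0% of all genes tested. Past a difference of 1, 8 genes were lower in KPR4, 4 in KPR5 and 8 in KPR8, against 1.91%, 1.37% and 2.13% of all genes tested.

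The lines differed in which genes moved most. By the probe sets used, Rad51ap1 (-1.98), Neil3 (-1.48) and Usp1 (-1.17) changed more in KPR4 than in the other lines. In KPR8 Exo1 (-1.92), Brca1 (-1.13) and Parp2 (-1.05) did, and in KPR5 Ung (-1.64) did. For Usp1 and Brca1 this order depended on the probe set. The other Usp1 probe sets changed most in KPR5 (-0.96 and -1.44). So did another Brca1 probe set past the filter, with -0.62, -1.01 and -0.53 in KPR4, KPR5 and KPR8. Whether the differences between lines exceed the error between arrays could not be tested.

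Levels of 17 of the 38 genes, averaged over both treatments, differed between lines (limma's F-test, adjusted p under 0.05), against 42.0% of all genes tested. The share is near that background. The test does not show a difference under each treatment. Rad51ap1, for instance, ranged from 6.12 to 6.51 with ethanol and from 4.15 to 5.81 with 4-OH tamoxifen. Of these 17 genes, 11 were also lower with treatment. KPR4 was the lowest line for 15 of the 17, KPR8 for 2 (Wrn and Rad52) and KPR5 for 0, while among all genes that differed KPR4 was lowest for 40.2%, KPR8 for 34.6% and KPR5 for 25.2%. The mean level of Ung over both treatments was 6.53 for KPR4, 7.77 for KPR5 and 8.27 for KPR8 (F-test, adjusted p = 2.8e-05). Nbn was at 6.26 for KPR4, 7.90 for KPR5 and 6.76 for KPR8 (F-test, adjusted p = 4.7e-05), and Hus1 at 5.27 for KPR4, 5.95 for KPR5 and 6.44 for KPR8 (F-test, adjusted p = 0.00215). Wrn ran the other way, at 6.84 for KPR4, 6.49 for KPR5 and 6.0 for KPR8 (F-test, adjusted p = 0.0159).

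**Figure D5:**
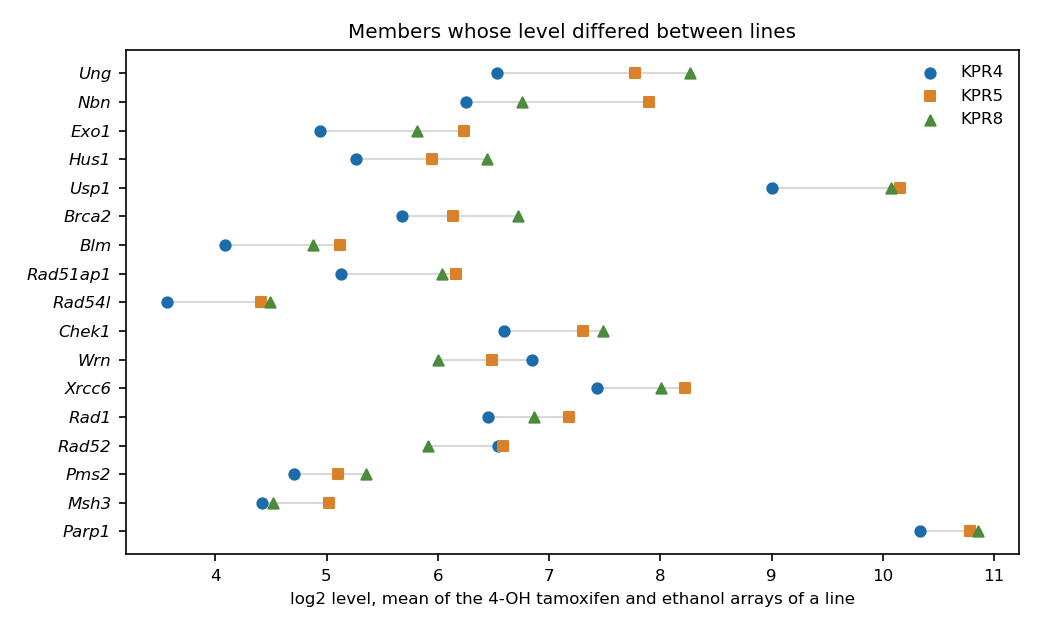
Log2 level in KPR4, KPR5 and KPR8, each the mean of the 4-OH tamoxifen and the ethanol array, for the 17 members that differed between lines in limma's F-test, ordered by the range between lines. KPR4 (circles) is the lowest point in 15 of the 17 rows, and Ung has the widest range at 1.74.

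Other genes of the same pathways were a list of 78, of which 37 were tested. Of these, 16 were lower and 1 higher, against 8.94% and 10.5% of all genes tested. Their median change was -0.32, against 0.0019 over all genes tested. In homologous recombination 6 of 15 fell and 1 rose: Rpa2, of the single-strand binding protein, changed by -1.02 ± 0.16 (limma, adjusted p = 0.000484), Eme1, of a structure-specific nuclease, by -0.87 ± 0.16 (adjusted p = 0.00167), and Rad51d by 0.63 ± 0.17 (adjusted p = 0.019). In the Fanconi anaemia pathway 3 of 6 fell, led by Ube2t, the ubiquitin-conjugating enzyme for FANCD2, with -1.15 ± 0.16 (adjusted p = 0.000193), and Faap24, with -0.77 ± 0.16 (adjusted p = 0.00397). In base excision repair 3 of 9 fell, led by the DNA ligase gene Lig1 (-0.99 ± 0.16) and the flap nuclease gene Fen1 (-0.86 ± 0.13), which also serve replication. In checkpoint signalling 4 of 5 fell, led by the fork protection genes Timeless (-1.20 ± 0.18) and Tipin (-0.65 ± 0.15). The 1 tested gene of mismatch repair, Mlh3 (0.21 ± 0.16), and the 1 of end joining, Prkdc (-0.0013 ± 0.16), were not called, also at an unadjusted p of 0.05.

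Markers of p53 activity and of proliferation moved on the same arrays. Of 9 tested p53 target genes 9 were higher, with a median change of 2.94, and by line of 2.97, 3.03 and 2.88 in KPR4, KPR5 and KPR8. Of 14 tested proliferation genes 11 were lower and 0 higher, with a median of -1.03, and by line of -1.32, -0.67 and -1.16. Over the 38 repair and checkpoint genes the medians were -0.53, -0.40 and -0.51 in the same lines, with -0.68, -0.74 and -0.83 in homologous recombination and -0.57, -0.66 and -0.33 in checkpoint signalling. RNA integrity was read from the difference between 3′ and 5′ control probe sets: with treatment it shifted by 0.24, 0.29 and -0.40 for Gapdh in KPR4, KPR5 and KPR8, and for Actb the shifts were 0.16, 0.39 and -0.072. The part of proliferation and of RNA integrity in the lower levels of the repair and checkpoint genes was not tested.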

How the data were processed

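Gene expression was measured on 6 mouse arrays. The deposited values are log2 signal per probe set, which the authors computed in R 2.11.0 by GCRMA 2.20.0, according to the submitters' processing notes. That method estimates background from each probe's base content and normalizes between arrays, so a shift shared by most genes would be hidden. The sources used here do not say if other arrays were normalized along with these 6. Array medians were 4.56 to 4.63 and 57.2% to 57.6% of probe sets were at log2 4 or above. The number of arrays limits the precision.

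Of 22690 probe sets, 20380 had 1 gene symbol in the platform annotation, 691 several and 1555 that were not among the 64 controls had none, and 20351 of the first matched the RefSeq gene table by Entrez identifier. None was named from several symbols. Genes passed a filter of log2 4 on 3 of 6 arrays and were represented by the brightest probe set.

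Treatments were compared in limma 3.58.1 (R 4.3.3) with terms for line and treatment and a variance trend. P-values are 2-sided and adjusted by Benjamini-Hochberg over 7644 genes. Residual degrees of freedom were 2 per gene and the prior added 12.9, so each p-value leans on other genes' spread. With 1 array per line and treatment, a gene's own residual holds differences in response between the 3 lines together with error between cultures and arrays. Pairing by line follows the design, and deviations of the arrays of a line from their group means correlated at 0.876, 0.737 and 0.761. The fit was tested on simulated data with 50 changed genes of 7644. It recovered 38% of changes of 0.5 and 100% of changes of 1, with 2 false calls in each case. A change near 0.5 can thus be missed. Alternatives were the filter, probe set choice, variance model, scaling, line term and each line left out. Array values are printed for up to 4 called members per pathway with the largest changes, and for Trp53bp1, which was singled out. They are also printed for the uncalled Fancg, Msh6, Apex1 and Chek2, which were not picked by that rule. The members, lists and motifs were chosen with earlier results of these data known.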

Additional observations from a re-analysis of the deposited data

How the results depend on the processing

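With the arrays centred on their medians, with quantile normalization and with robust moderation, the 38 genes kept 19 lower and 1 higher and each kept its call. Over all genes tested 702, 662 and 680 were lower and 765, 809 and 809 higher in these 3 fits. Without the line as a block, that is with treatments not paired, 0 genes were lower and 0 higher in limma, in each pathway too. Over all genes 22 were called higher and 1 lower. At an unadjusted p under 0.05, 13 of the 38 were lower and 1 higher, against 382 lower and 396 higher of all 7644 genes. The unpaired median change was the same. Without a filter 15 members were lower, 2 in base excision repair and 3 in checkpoint signalling, while over all 12393 genes 565 were lower and 716 higher. The 4 calls lost were those of Atr (adjusted p = 0.0631), Rad1 (adjusted p = 0.0635), Parp1 (adjusted p = 0.0581) and Parp2 (adjusted p = 0.0746). A stricter filter at log2 6 left 26 members, with 13 lower and 3 in homologous recombination, since fewer genes were tested. Over all 5167 genes of that fit 614 were lower and 674 higher. With the mean of probe sets 20 members were lower and 0 higher, Trp53bp1 having 0.25 (limma, adjusted p = 0.169), against 699 lower and 718 higher of all 7644 genes. Without a variance trend 18 members were lower and 0 higher, against 605 lower and 702 higher of all 7644 genes. With each line left out, 12 to 15 were lower (12 without KPR4, 15 without KPR5, 13 without KPR8, where 438, 456 and 420 of all 7644 genes were lower) and 0 to 1 higher, with medians of -0.48 to -0.47. By pathway these were 6 in homologous recombination, 1 to 2 in the Fanconi anaemia pathway, 2 to 3 in base excision repair, 0 to 1 in end joining and 3 to 4 in checkpoint signalling. Of 20 calls, 12 ended only without the line term, and 8 also without at least 1 line. Uncalled changes that turned sign were Msh6 (-0.027 to 0.30), Rad52 (-0.20 to 0.18), Wrn (-0.15 to 0.13) and Chek2 (-0.050 to 0.11) over the fits without a line, the first 3 without KPR4 and Chek2 without KPR8. The cause was not tested. Counting by line past 0.4 in place of 0.5 gave 23, 19 and 24 lower in KPR4, KPR5 and KPR8, against 13.6%, 15.3% and 18.4% of all genes tested. Depth here is signal over background, which limits Rad54l, Ogg1, Msh3, Blm, Bard1, Nthl1 and Mgmt.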
